A study of Mus musculus with 47 samples.

Results

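Nucleosome signal at liver binding sites of the circadian transcription factor CLK:BMAL1 was compared between Bmal1-/- and wild-type mice killed at ZT10, that is 10 h after lights on in a cycle of 12 h light and 12 h dark. The comparison takes the 8 libraries labelled ZT10 out of 47 in the series, 4 from wild-type mice (replicates 11, 12, 26 and 27) and 4 from Bmal1-/- mice (replicates 5, 8, 9 and 10). The other 39 libraries come from 5 other times of day and enter only where stated. All 8 mice were adult C57BL/6 animals aged 3 to 6 months, kept in the light cycle for weeks before the experiment. The genotype is given by the library titles and the study's design text. The sources used here do not say how the Bmal1 allele was made or what sex the mice were. The targeted gene itself was not analysed here, so the labels were not checked against it. Every liver, of either genotype, was crosslinked with 1% formaldehyde, its nuclei were digested with micrococcal nuclease (MNase) for 15 min, and DNA of about 150 nt was sequenced.

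CLOCK and BMAL1 are basic helix-loop-helix proteins that bind as a pair to E-box sequences and switch on clock genes such as the Period and Cryptochrome genes, whose products then repress the pair. Without BMAL1 the pair cannot form and the clock stops. A nucleosome is a stretch of DNA wrapped around a histone octamer. MNase cuts the DNA between nucleosomes, so the sequenced fragments report where nucleosomes sat, and bound regulatory sites typically show a dip, or trough, in this signal. In liver the DNA binding of CLK:BMAL1 is known to be strongest around the middle of the light phase.

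The deposited signal is a scaled coverage, averaged over sets of ChIP-seq peaks of CLK:BMAL1, in windows of 3 kb with 1 value every 10 bp. The peak list holds 3217 peaks with mm9 positions, of which 583 (18.1%) lay at transcription start sites (TSS), 1412 (43.9%) in introns, 6.56% elsewhere in gene bodies, 9.14% between genes within 10 kb of a gene and 22.3% between genes beyond 10 kb. Further sets are 10 consecutive deciles of the list and sets named as the top of all peaks or of a class. These sets share peaks, and every set of a mouse shares 1 library. The sources used here do not say what the list was ranked by. The median width of a ChIP-seq peak was 399 bp in decile 1 of the list, against 309 bp over all peaks, and 23.3% of its peaks were TSS peaks, against 15.4% in decile 10. Relative depth, with the shallowest of all 47 libraries at 1, averaged 1.61 ± 0.398 for the 4 wild-type and 1.497 ± 0.243 for the 4 Bmal1-/- libraries (SD; exact two-sided permutation test, p = 0.714). A position near the middle of the all-peak profile was covered by 25589 to 46721 fragments, so counting error was at most 0.625%, below the spread between mice. The values average over all peaks of a set and all cells of the liver, so a smaller share of cells with an open site and a less open site in each cell cannot be told apart.

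The main measure, called relative central signal here, is the mean signal within 150 bp of the window middle in percent of the mean signal beyond 1000 bp on both sides (the flank). A value of 100% means no trough, and lower values a deeper one. Tests between 4 and 4 mice were exact two-sided permutation tests, whose 70 assignments allow no p below 0.0286, the value obtained when the groups do not overlap. With 3 against 4 mice there are 35 assignments and the smallest p is again 0.0286, but groups that do not overlap can also give 0.0571, when an assignment in the opposite direction differs by as much. Groups apart over all 8 mice stay apart when a mouse is left out, so a p of 0.0571 after an omission does not mean that they overlapped. Where groups overlap through 1 mouse, leaving that mouse out sets them apart by the choice of mouse. A p of 0.0286 after such an omission adds no support. P-values adjusted by the Benjamini-Hochberg method run over 28 peak sets. As no exact p falls below 0.0286, a set can pass this adjustment only where many sets reach that value together. A failure where few sets reach it was thus fixed in advance, and sets that pass together share peaks and libraries. Adjustments over fewer tests, where stated, have a similar limit. Each library is 1 mouse, so these p-values measure the spread between mice.

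At ZT10 the trough over CLK:BMAL1 peaks was shallower in mice without BMAL1. Over all peaks the central signal was 66.12%, 66.15%, 66.9997% and 63.7% of flank in wild-type replicates 11, 12, 26 and 27. It was 74.5%, 73.5%, 76.5% and 74.6% of flank in Bmal1-/- replicates 5, 8, 9 and 10. The lowest Bmal1-/- mouse thus lay above the highest wild-type mouse, with a gap larger than the spread within either group. The means were 65.8% ± 1.40 (SD, n = 4) and 74.8% ± 1.27 (SD, n = 4), a difference of 9.05 percentage points (SE 0.948, exact permutation test, p = 0.0286, adjusted p = 0.0381). Leaving out each mouse in turn gave differences of 8.38 to 9.49 points, each at the smallest p. A trough remained in the absence of BMAL1. Its mean depth below the flank was 25.2 points against 34.2 in wild type, which is 73.6% of the wild-type depth, and the centre lay below the shoulders (150 to 500 bp from the middle) in 8 of 8 mice.

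**Figure D1:**
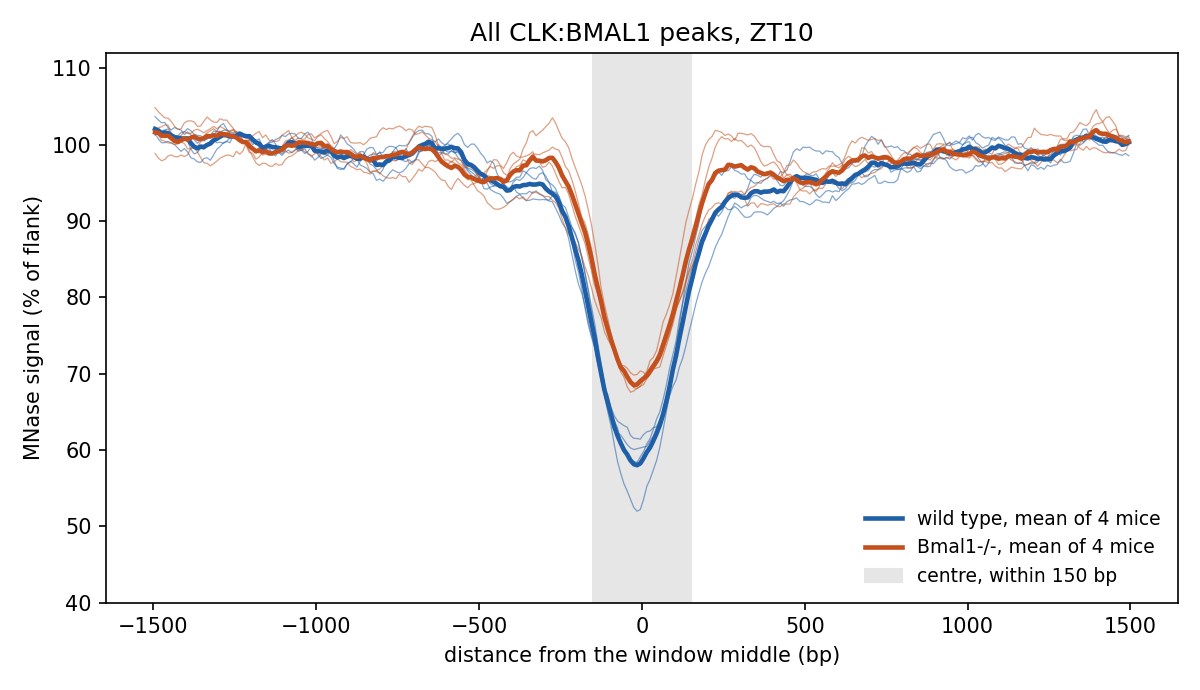
MNase signal in percent of flank (y axis) against the distance from the window middle in bp (x axis) over all CLK:BMAL1 peaks at ZT10; thin lines are single mice, thick lines the mean of 4 mice per genotype, and the grey band the central 150 bp on each side. The Bmal1-/- lines lie above the wild-type lines around the middle (mean 74.8% against 65.8% of flank over the band). Towards the window ends the lines run together, where each profile is scaled to its own mean beyond 1000 bp.

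The difference sat in the middle of the window and shrank with distance from it. Within 50 bp of the middle, wild-type mice had 62.2%, 60.8%, 60.3% and 54.6% of flank and Bmal1-/- mice 70.3%, 68.9%, 70.1% and 69.4%. The groups were 10.2 points apart there (SE 1.71, exact permutation p = 0.0286, adjusted p = 0.1 over 7 distance bands), and wild-type replicate 27 was the lowest mouse. From 50 to 150 bp the difference was 8.48 points (SE 1.00, exact permutation p = 0.0286, adjusted p = 0.1), again with no overlap. From 150 to 250 bp it was 5.70 points (SE 2.63) with overlapping groups, and the exact permutation p was 0.0857. It was 3.80 points (SE 2.15) from 250 to 350 bp, 1.14 points (SE 1.26) from 350 to 500 bp and -0.0162 points (SE 0.912) from 500 to 750 bp. Leaving out each mouse in turn gave 3.96 to 7.30 points for the band from 150 to 250 bp, at an exact permutation p from 0.0286 to 0.2. The highest value was without Bmal1-/- replicate 8, with no overlap (exact permutation p = 0.0286).

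Position by position, all 4 Bmal1-/- mice exceeded all 4 wild-type mice over 320 bp of the all-peak profile, or 10.7% of its positions, and fell below them over 80 bp (2.67%). Most of the first, 280 of the 300 bp of the centre, lay within 150 bp of the middle. Over the positions of the 27 deposited sets together these shares were 7.65% and 0.778%. In the all-peak profile the lower positions ran from -605 to -545 bp, with a mean difference of -2.76 points at -585 bp. A further 10 bp lay beyond 1000 bp.

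The deepest point moved in the same direction as the mean of the centre. After a running mean over 5 positions, the minimum of the all-peak trough was 61.7%, 60.2%, 58.8% and 52.7% of flank in wild-type mice. Bmal1-/- mice had minima of 69.97%, 67.99%, 68.8% and 68.6%. The minimum was 10.5 points higher in Bmal1-/- mice (SE 2.01, exact permutation p = 0.0286, adjusted p = 0.0348). Wild-type minima spread over a wider range (SD 3.93) than Bmal1-/- minima (SD 0.836). The minimum fell between 5 and 25 bp to the left of the window middle in all 8 mice, at -17.5 bp on average in both genotypes.

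The width of the trough and the shoulders gave no call over the sets. The trough, measured at the level midway between its minimum and the flank, was 370, 320, 290 and 270 bp wide in wild-type mice and 310, 330, 250 and 280 bp in Bmal1-/- mice. The means of 312.5 ± 43.5 bp and 292.5 ± 35 bp (SD, n = 4 each) overlapped (exact permutation p = 0.571). Shoulder signal averaged 92.1% ± 1.48 of flank in the wild-type and 95.3% ± 3.16 in the Bmal1-/- mice (SD, n = 4 each), 3.20 points apart (SE 1.74, exact permutation p = 0.143, adjusted p = 0.333). It was higher on average in Bmal1-/- mice in 27 of 28 sets. In 4 of the 28 sets the groups did not overlap, and 0 passed the adjusted exact permutation test, which so few sets at the smallest p cannot do. Bmal1-/- replicate 8 had the lowest shoulder of its group at 91.2%, and without it the all-peak shoulder differed by 4.56 points with no overlap (exact permutation p = 0.0286).

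On the scale on which the authors deposited the signal, the groups were apart in the centre and overlapped in the flank. Central signal was 4.54, 4.41, 4.54 and 4.20 units in wild-type mice and 5.18, 4.68, 5.12 and 4.87 units in Bmal1-/- mice. The means of 4.42 ± 0.163 and 4.96 ± 0.231 units (SD, n = 4 each) were 0.536 units apart (SE 0.141, exact permutation p = 0.0286, adjusted p = 0.0857 over 3 measures). Without any 1 of wild-type replicates 11, 12, 26 or 27 the groups were still apart by 0.461 to 0.576 units, at an exact permutation p of 0.0571. Flank signal averaged 6.73 ± 0.124 units in the wild-type and 6.63 ± 0.248 units in the Bmal1-/- mice (SD, n = 4 each; exact permutation p = 0.543). The mean over the whole window, at 6.32 and 6.35 units, differed by 0.0246 units (SE 0.149, exact permutation p = 0.886).

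Among the genomic classes, the 4 classes away from start sites each had a shallower trough in Bmal1-/- mice. Across all 28 sets the mean was higher in Bmal1-/- mice in 28, and 21 sets passed the adjusted test, a share of 75%. The differences ranged from 3.42 to 16.2 points with a median of 9.85. In introns, the largest class, wild-type mice had 67.4%, 68.3%, 71.8% and 64.1% of flank and Bmal1-/- mice 79.3%, 76.7%, 81.8% and 80.1%. The intron groups did not overlap and differed by 11.5 points (SE 1.90, exact permutation p = 0.0286, adjusted p = 0.0381). The trough at introns was 32.1 points deep in wild type and 20.5 points deep in Bmal1-/- mice.

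Gene body peaks outside introns, obtained by subtracting the intron profile from that of gene bodies, had 66.6%, 71.2%, 68.3% and 70.7% in wild-type mice and 75.5%, 82.4%, 80.6% and 81.8% in Bmal1-/- mice. The difference was 10.9 points (SE 1.90, exact permutation p = 0.0286, adjusted p = 0.0381). Without wild-type replicate 11 or 26 the groups were still apart, by 9.998 and 10.6 points, at an exact permutation p of 0.0571. In this class alone among the 5 the groups also did not overlap far from the centre, with 4.96 points more signal in Bmal1-/- mice between 750 and 1000 bp (SE 1.76, exact permutation p = 0.0286, adjusted p over its 7 bands = 0.0667).

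Peaks between genes split by distance gave smaller differences. Within 10 kb of a gene, wild-type mice had 65.04%, 67.6%, 65.8% and 68.8% of flank and Bmal1-/- mice 80.95%, 78.9%, 72.4% and 74.8%, a difference of 9.96 points (SE 2.12, exact permutation p = 0.0286, adjusted p = 0.0381). Bmal1-/- mice varied more there than wild-type mice (SD 3.88 against 1.71). With wild-type replicate 11 or 26 left out the difference was 9.36 and 9.63 points, with no overlap at an exact permutation p of 0.0571. Beyond 10 kb, wild-type mice had 69.1%, 67.1%, 69.5% and 67.1% and Bmal1-/- mice 73.8%, 76.3%, 77.4% and 74.8%. The difference at these distal sites was 7.37 points (SE 1.03, exact permutation p = 0.0286, adjusted p = 0.0381).

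TSS peaks had the deepest troughs of the 5 classes in either genotype and gave no detectable difference in relative central signal over the whole class. Active promoters commonly carry a nucleosome-depleted region of their own. Relative central signal at TSS peaks was 59.3%, 56.7%, 51.9% and 53.1% in wild-type mice and 59.5%, 55.3%, 62.7% and 57.3% in Bmal1-/- mice, so the groups overlapped. The means of 55.3% ± 3.38 and 58.7% ± 3.16 (SD, n = 4 each) were 3.42 points apart (SE 2.31, exact permutation p = 0.171, adjusted p = 0.171). Leaving out each mouse in turn gave 2.10 to 4.77 points, the lowest without Bmal1-/- replicate 9. The trough of Bmal1-/- mice at TSS peaks had 92.3% of the wild-type depth.

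Whether the classes differed from TSS peaks in this respect was tested within each mouse. Intron signal minus TSS signal was 8.08, 11.6, 19.8 and 10.99 points in wild-type mice and 19.8, 21.3, 19.1 and 22.8 points in Bmal1-/- mice. The genotypes differed by 8.13 points (SE 2.65, exact permutation p = 0.0857), and the p adjusted over the 4 class pairs was 0.143. Wild-type replicate 26 lay inside the Bmal1-/- range, and without it the difference was 10.5 points with no overlap (exact permutation p = 0.0286). The same contrast gave 7.45 points for the rest of gene bodies (SE 3.51, exact permutation p = 0.114), 6.53 points for intergenic peaks within 10 kb (SE 3.75, exact permutation p = 0.143) and 3.95 points for those beyond 10 kb (SE 2.38, exact permutation p = 0.143), all at an adjusted p of 0.143. Without Bmal1-/- replicate 5 the rest of gene bodies gave 9.25 points (exact permutation p = 0.0286). A genotype effect at TSS peaks that differs from that in the other classes was therefore not established over all 8 mice.

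**Figure D2:**
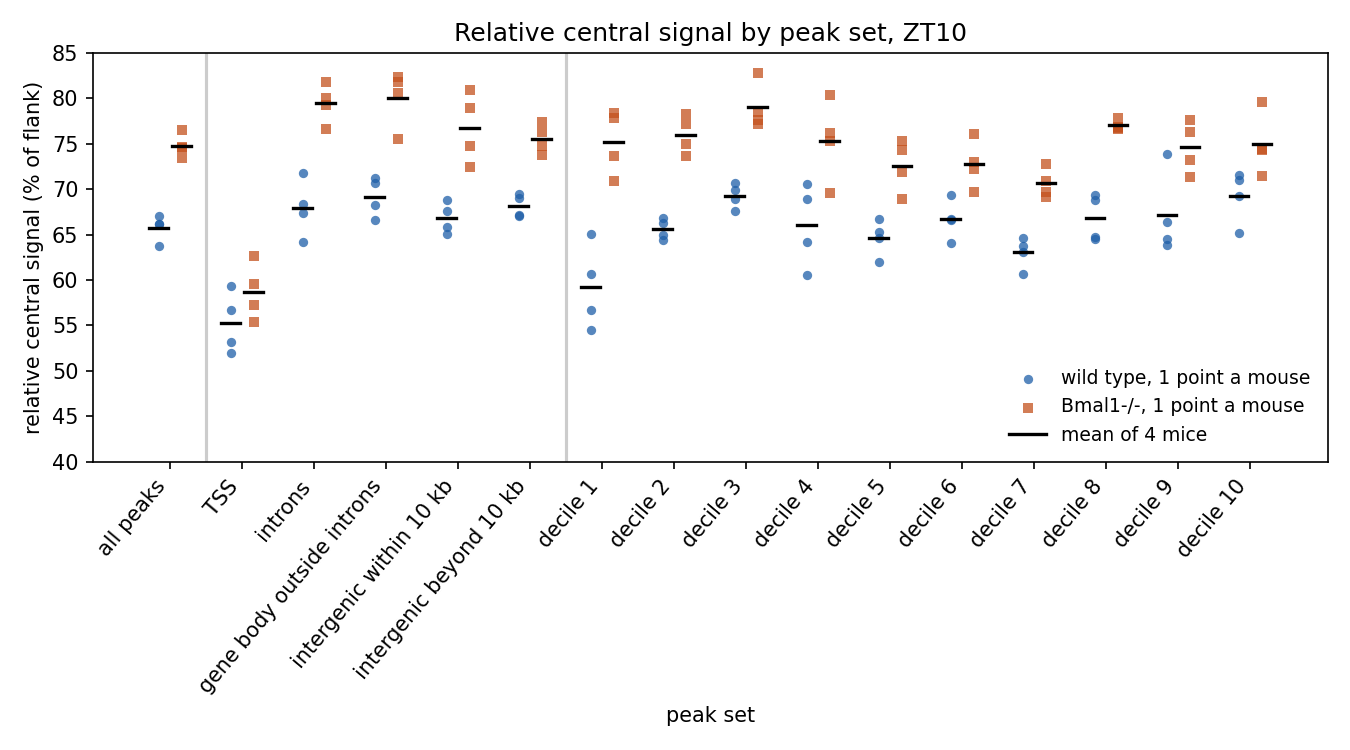
Relative central signal in percent of flank (y axis, from 40 to 85) for all peaks, the 5 genomic classes and the 10 deciles of the peak list (x axis) at ZT10; circles are wild-type and squares Bmal1-/- mice, and black bars the mean of 4 mice. The groups are apart in 4 of the 5 classes and 7 of the 10 deciles, and overlap at TSS peaks.

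Along the peak list, decile 1 stood at the upper end of the differences. Its peaks had 65.1%, 60.7%, 56.7% and 54.5% of flank in wild-type mice. Those of Bmal1-/- mice had 77.8%, 70.9%, 78.4% and 73.7%. The groups were 15.9 points apart (SE 2.93, exact permutation p = 0.0286, adjusted p = 0.0381), and leaving out each mouse gave 14.4 to 17.9 points without overlap. The trough of Bmal1-/- mice kept 60.9% of the wild-type depth there. Within 50 bp of the middle, wild-type mice ranged from 44.8% to 63.4% (SD 8.26) and Bmal1-/- mice from 67.6% to 71.1% (SD 1.56).

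In the other deciles the difference ranged from 5.70 points in decile 10 to 10.4 points in decile 2. The groups did not overlap in deciles 2, 3, 5, 6, 7 and 8 (exact permutation, adjusted p = 0.0381 each). They overlapped in decile 4 at 9.27 points (exact permutation p = 0.0571, adjusted p = 0.064), in decile 9 at 7.42 points (exact permutation p = 0.0857, adjusted p = 0.0923) and in decile 10 at 5.70 points (exact permutation p = 0.0571, adjusted p = 0.064). The 7.97 points of decile 5 became 7.07 to 8.18 points without wild-type replicate 11, 12 or 27, still with no overlap (exact permutation p = 0.0571). In decile 6 the 6.07 points became 4.96 to 6.96 points without any 1 of 6 mice, the others being Bmal1-/- replicates 5 and 10, again with no overlap (exact permutation p = 0.0571). Overlap in the other deciles rested on single mice. It was gone in deciles 4 and 10 without Bmal1-/- replicate 8 (11.2 and 6.88 points) and in decile 9 without wild-type replicate 26 (9.66 points), each at an exact permutation p of 0.0286. Without wild-type replicate 12 the groups of deciles 4 and 10 were also apart. The highest of the other wild-type mice were 68.96% and 70.99%, below the lowest Bmal1-/- mice at 69.5% and 71.4%. The mice left out here were those out of order, so the loss of overlap follows from the choice of mouse. Over all omissions the difference was 7.44 to 11.2 points in decile 4, 6.32 to 9.66 in decile 9 and 4.15 to 6.88 in decile 10. The exact permutation p rose as high as 0.114, 0.143 and 0.114 in these deciles.

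A slope over the deciles was computed in each mouse to test for a trend. It was -0.033, 0.309, 0.978 and 0.729 points per decile in wild-type mice and -0.609, -0.142, -0.0943 and -0.028 in Bmal1-/- mice. Signal thus rose down the list in 3 of 4 wild-type mice and fell in 4 of 4 Bmal1-/- mice, wild-type replicate 11 being the exception. The mean slopes differed by -0.714 points per decile (SE 0.26, exact permutation p = 0.0571). Without wild-type replicate 11 the difference was -0.890 (exact permutation p = 0.0286), and without decile 1 it was -0.405 (exact permutation p = 0.143).

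Sets named as the top of a class were compared in the same way. In the top 400 introns, wild-type mice had 70.2%, 64.8%, 67.7% and 62.4% of flank and Bmal1-/- mice 81.9%, 79.9%, 83.98% and 82.4%. The difference of 15.8 points (SE 1.89, exact permutation p = 0.0286, adjusted p = 0.0381) left 53.2% of the wild-type depth. The trough of this set was also narrower in Bmal1-/- mice, at 260, 230, 180 and 200 bp against 340, 440, 300 and 290 bp, but among 28 sets this did not pass (difference -125 bp, SE 38.5, exact permutation p = 0.0286, adjusted p = 0.4). Width differed by -92.5 bp without wild-type replicate 12, by -112.5 bp without Bmal1-/- replicate 9 and by -119 bp without Bmal1-/- replicate 10, each with no overlap at an exact permutation p of 0.0571.

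Top 400 gene body peaks differed by 16.1 points (SE 1.78) and the top 200 intergenic peaks beyond 10 kb by 8.57 points (SE 0.788), both at an exact permutation p of 0.0286 and an adjusted p of 0.0381. The top 100 intergenic peaks within 10 kb differed by 12.4 points (SE 3.58) at the same p. The groups were still apart without wild-type replicate 12, 26 or 27 (11.6 to 12.1 points) or Bmal1-/- replicate 5 (9.27 points), at an exact permutation p of 0.0571. The top 200 TSS peaks were 5.41 points apart (SE 2.83, exact permutation p = 0.143, adjusted p = 0.148). The top 25% of TSS peaks had 58.9%, 53.3%, 48.7% and 49.6% in wild-type mice and 66.1%, 59.1%, 65.1% and 56.1% in Bmal1-/- mice, 9.01 points apart with 2 mice out of order (SE 3.33, exact permutation p = 0.0571, adjusted p = 0.064). The minimum of the trough in this set averaged 41.7% of flank in wild-type and 52.7% in Bmal1-/- mice, with no overlap. The minima differed by 11.1 points (SE 3.58, exact permutation p = 0.0286, adjusted p = 0.0348). At the top 200 TSS peaks the minima overlapped (6.87 points, SE 3.09, exact permutation p = 0.0857), as they did over all TSS peaks (4.53 points, SE 2.65, exact permutation p = 0.143).

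Top sets were also set against the remaining peaks of their class within each mouse. At the top 400 gene body peaks, central signal minus that of the other gene body peaks was -0.0609, -4.13, -5.72 and -4.44 points in wild-type mice and 3.04, 1.199, 3.37 and 2.61 points in Bmal1-/- mice. The top peaks thus had the deeper trough in 4 of 4 wild-type mice and the shallower trough in 4 of 4 Bmal1-/- mice. The genotypes differed by 6.14 points (SE 1.31, exact permutation p = 0.0286), with an adjusted p of 0.143 over 5 classes. Without any 1 of the Bmal1-/- mice the genotypes were still apart by 5.87 to 6.59 points (exact permutation p = 0.0571). For introns the difference was 5.89 points (SE 2.197, exact permutation p = 0.114), for TSS peaks 3.07 points (SE 2.50, exact permutation p = 0.229), and for intergenic peaks 3.63 points within 10 kb (SE 5.42, exact permutation p = 0.514) and 1.64 points beyond (SE 1.17, exact permutation p = 0.229). These 4 values depended on single mice. Introns reached 7.94 points without wild-type replicate 11 and TSS peaks 4.86 points without Bmal1-/- replicate 10, each with no overlap (exact permutation p = 0.0286). Without Bmal1-/- replicate 5 the TSS value was 1.15 points, and the lowest value for introns after an omission was 4.75 points. Leaving out 1 mouse gave 0.979 to 7.60 points for intergenic peaks within 10 kb, the extremes being without Bmal1-/- replicates 5 and 8. Beyond 10 kb it gave 0.983 points without wild-type replicate 26 and 2.47 points without wild-type replicate 12.

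Single positions were then tested with limma on log2(percent of flank + 1), where a log2 difference slightly understates the change in percent. Over the 81000 bp of the 27 deposited profiles, 1870 bp (2.31%) were higher in Bmal1-/- mice at an adjusted p under 0.05. By limma 0 bp were lower, and at an unadjusted p under 0.05 540 bp (0.667%) were lower and 8560 bp (10.6%) higher. Of the 8100 bp within 150 bp of the middle 1680 bp (20.7%) were higher, and of the 72900 bp farther out 190 bp (0.261%). Since 1 fragment covers many neighbouring positions, calls are counted by the width they cover at 10 bp a position. The sets share peaks, so a width summed over sets counts the same peaks more than once.

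In decile 1 150 bp were called higher, in 1 stretch from -135 to 5 bp. The largest difference was at -15 bp, where wild type averaged 50.8% and Bmal1-/- 70.01% of flank (log2 difference 0.47, SE 0.0988, limma adjusted p = 0.0115). In introns 170 bp were called from -95 to 65 bp, with the largest difference at -5 bp (61.2% against 74.9% of flank, log2 difference 0.29, limma adjusted p = 0.0198). The top 400 introns had 210 bp and the top 400 gene body peaks 220 bp.

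The all-peak profile had 10 bp called, at -85 bp, although its largest difference, at -5 bp, was 58.2% against 69.02% of flank (log2 difference 0.24, SE 0.0712, limma adjusted p = 0.0519). Intergenic peaks beyond 10 kb had 30 bp from -85 to -65 bp. Those within 10 kb had 80 bp, of which 10 bp were central and the other 70 bp lay in the left shoulder. Over all TSS peaks 0 bp passed (smallest limma adjusted p = 0.281), and 50 bp had an unadjusted p under 0.05. The top 200 TSS peaks had 0 bp as well. The top 25% of TSS peaks had 20 bp from -15 to -5 bp, with 41.02% against 53.3% of flank at -15 bp (limma adjusted p = 0.0329). In 7 of the 10 deciles 0 bp passed, decile 2 had 20 bp, and decile 7 had 30 bp that lay outside the centre, 1235 to 1255 bp from the middle.

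These widths also changed in fits that left out all libraries of 1 replicate number, at ZT10 and at the other times. Such an omission takes out other mice besides the ZT10 mouse, unlike the omissions for the mean over the centre. The 1870 bp became 0 bp without wild-type replicate 27, 100 bp without Bmal1-/- replicate 10 and 230 bp without Bmal1-/- replicate 9. The width was 980, 640 and 920 bp without wild-type replicates 11, 12 and 26, and 1070 bp without Bmal1-/- replicate 5. Without Bmal1-/- replicate 8 it was 2760 bp, and the all-peak profile then had 120 bp in place of 10 bp. Without any other 1 of these replicate numbers that profile had 0 bp. Wild-type replicate 27 was the lowest wild-type mouse in relative central signal in 16 of 28 sets, and Bmal1-/- replicate 8 the lowest of its group in 15.

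**Figure D3:**
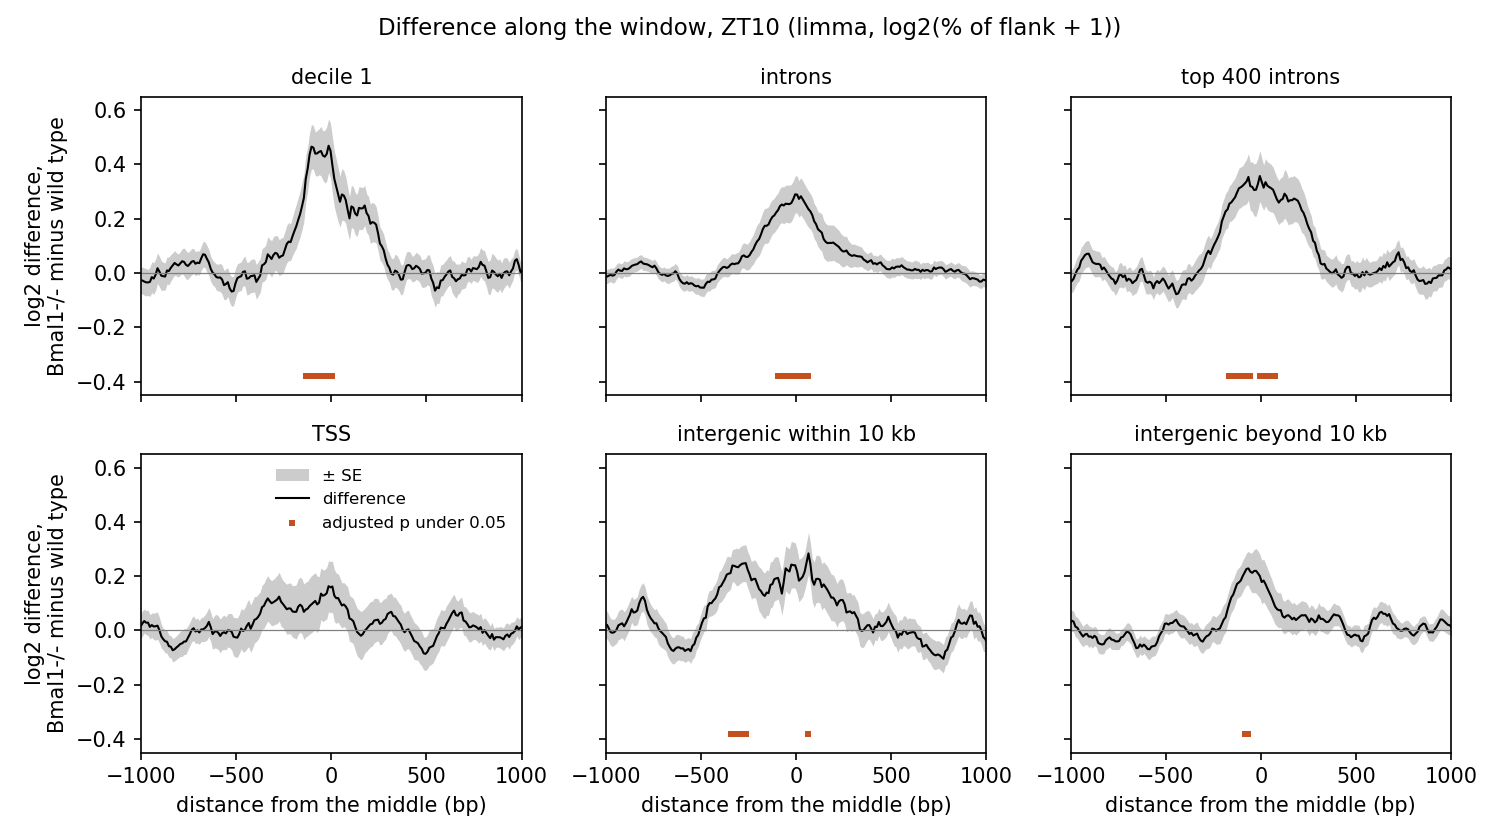
Log2 difference in MNase signal, Bmal1-/- minus wild type (y axis), against the distance from the window middle in bp (x axis, inner 1000 bp on each side) for 6 peak sets at ZT10; the line is the limma estimate, the grey band ± 1 SE, and squares mark positions with an adjusted p under 0.05. The estimate peaks near the middle at 0.47 in decile 1 and 0.29 in introns, and no position of the TSS profile is marked.

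The last question was whether the genotype difference at ZT10 departed from that at other times of day. At ZT10 the relative central signal over all peaks, 65.8% ± 1.40 (SD, n = 4) in wild type, was close to the 65.3% ± 1.77 of ZT06 (SD, n = 4), while at the other 4 times wild-type means lay between 70.3% and 72.6%. In Bmal1-/- mice the mean of 74.8% ± 1.27 (SD, n = 4) at ZT10 was the lowest of the 6 times, the others lying between 76.2% and 80.7%. The SD of Bmal1-/- mice at ZT10 was also the smallest of the 6 times, where the others ran from 5.13 to 6.79 points.

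Each time has its own mice, and the labels do not say what a shared replicate number marks. Libraries of different times with the same number were grouped as 1 series so that a genotype has 4 values, and ZT10 was set against the mean of the other times in each series. Over all peaks this was -4.84, -2.65, -3.37 and -6.80 points in the wild-type series and -3.14, 0.552, -6.66 and -5.92 points in the Bmal1-/- series. The value of 0.552 is that of Bmal1-/- replicate 8, which has no ZT22 library, so its mean of the other times leaves out ZT22. The genotypes differed by 0.626 points (SE 1.87, exact permutation p = 0.771), so in the all-peak mean a genotype difference particular to ZT10 was not detected. For decile 1 the mean departures were -7.55 points in wild type and -2.40 in Bmal1-/- (difference 5.15, SE 2.70, exact permutation p = 0.143). Over the 28 sets the smallest adjusted p was 0.92. At single positions the limma test of this contrast called 0 of 81000 bp, with 2430 bp (3%) at an unadjusted p under 0.05.

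Against single times, ZT18 in the dark phase stood out for decile 1, among contrasts computed for all peaks, decile 1 and the 5 classes. The genotype difference of decile 1 was 1.86 points at ZT18 and 15.9 points at ZT10. At ZT02, ZT06, ZT14 and ZT22 it was 14.3, 18.6, 10.8 and 12.0 points. From ZT18 to ZT10 the central signal of decile 1 changed by -11.8 points in wild type (71.02% ± 2.85 at ZT18 and 59.2% ± 4.65 at ZT10, SD, n = 4 each). In Bmal1-/- mice it was 72.9% ± 4.67 at ZT18 and 75.2% ± 3.55 at ZT10 (SD, n = 4 each). The 2 departures of -11.8 and 2.32 points differed by 14.1 points (SE 3.45, exact permutation p = 0.0286), with an adjusted p of 0.143 over the 5 times, which 70 assignments cannot take lower for a single time. Over all peaks the same contrast gave 5.48 points (SE 2.79, exact permutation p = 0.0857, adjusted p = 0.429). Leaving out each series gave 3.27 to 7.52 points, at an exact permutation p from 0.0286 to 0.2. The highest value was without the series of Bmal1-/- replicate 10 (exact permutation p = 0.0286).

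**Figure D4:**
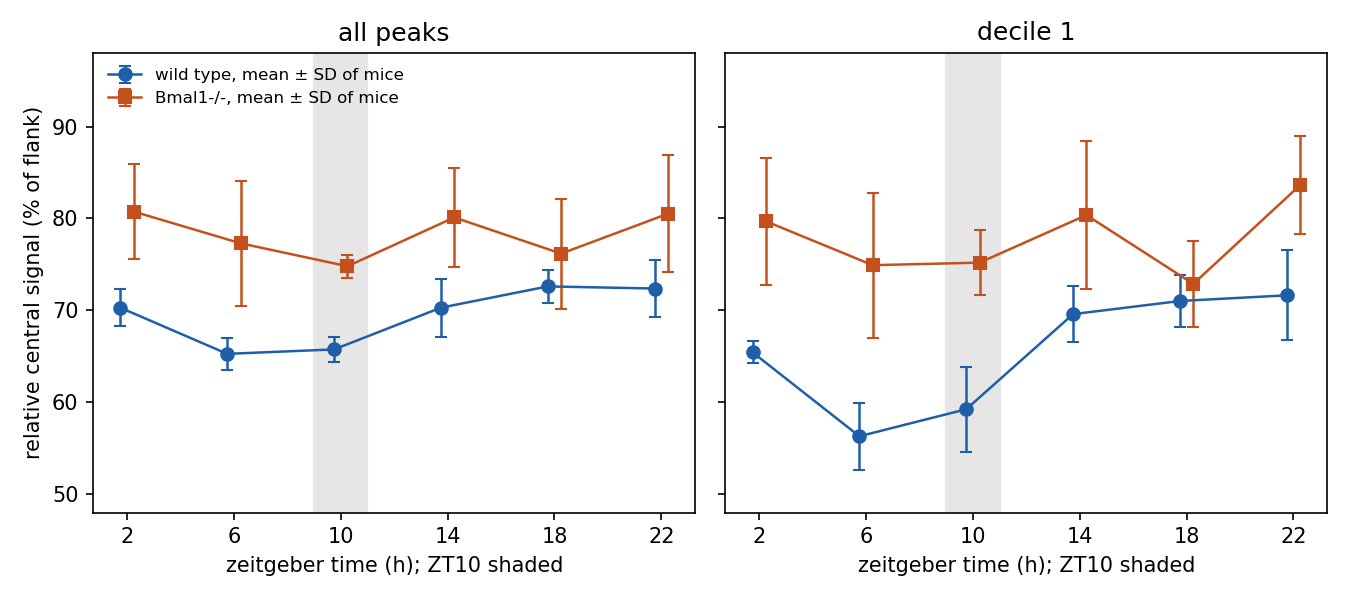
Relative central signal in percent of flank (y axis, from 48 to 98) against zeitgeber time in h (x axis, ZT10 shaded) over all peaks and in decile 1 of the list; points are means and bars SDs of 4 mice, 3 for Bmal1-/- at ZT22. At ZT10 the means are 65.8% and 74.8% over all peaks and 59.2% and 75.2% in decile 1, and at ZT18 decile 1 has 71.02% and 72.9%.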

How the data were processed

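Nucleosome DNA of 8 mouse livers at ZT10 (4 wild-type, 4 Bmal1-/-), among 47 libraries, was measured by MNase-seq. Per the submitters' processing notes, CASAVA 1.7 and Bowtie were used, with the mm9 build. The sources used here do not give the duplicate handling, the fragment length assumed for the coverage or what the signal was scaled to. The authors deposited a signal, a scaled coverage averaged over each of 27 peak sets at 300 positions per library, from the values of the table, and a list of 3217 peaks with other fields (position and class). The profile of all peaks is named for 3216. Windows of 630 peaks (19.6%) overlap another, and the side that left stands for on a peak's strand was not given in the sources used here.

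Signal was divided by its mean beyond 1000 bp. Gene body peaks outside introns were obtained from the peak-weighted difference of 2 deposited sets. Depth was read from the step of 1 fragment in the sets of 74 and 100 peaks, where 100% of values were whole multiples (tolerance 0.1 step). These depths cover counting error only, since PCR copies of a molecule are counted as fragments. Exact tests used Python 3.11.15 and numpy 2.4.6. limma 3.58.1 (R 4.3.3, eBayes with a trend) was fitted to all 47 libraries in 12 groups, on log2(percent of flank + 1), with Benjamini-Hochberg adjustment over 8100 positions, and was tested on simulated data. Sets, positions and the ends of called stretches are named by rule, and no gene is named. The comparison, sets and measures were chosen with earlier results of these data known. Trough minimum, distance bands, top sets against the rest and the slope without decile 1 were added after seeing the values. Alternatives were other centre and flank limits, pseudocounts, filters, scales, blocks and leaving out each mouse. For limma and the contrasts with other times, all libraries of a replicate number were left out together.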

Additional observations from a re-analysis of the deposited data

Results flagged for a closer look

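The change from ZT18 to ZT10 in decile 1 of the peak list differed between the genotypes by 14.1 percentage points of relative central signal. It was -11.8 points in wild-type and 2.32 points in Bmal1-/- series (exact two-sided permutation test, p = 0.0286, adjusted p = 0.143 over 5 times). The genotype difference of decile 1 was 15.9 points at ZT10, inside the 10.8 to 18.6 points of ZT02, ZT06, ZT14 and ZT22. At ZT18 it was 1.86 points, so ZT18 was the time set apart. The contrast was singled out because the difference between genotypes was itself tested between 2 times. Such contrasts were also computed for all peaks and the 5 classes against each of the 5 other times. This one had the smallest exact permutation p among them, and its adjusted p does not cover the other sets. Leaving out each series, with its libraries of both times, gave 12.3 to 15.9 points, each at p = 0.0286 by the exact permutation test. In a search for a mouse far from the other 3 of its group, 74 groups of 4 were examined and 0 were found, where chance gives about 5%.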

How the results depend on the processing

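The difference in relative central signal kept its direction in 28 of 28 sets under every alternative centre, flank, log scale and omitted mouse. An exact permutation p of 0.0286 was reached in 19 to 22 sets under the other limits and in 17 to 22 without 1 mouse, where groups that are apart can also give 0.0571. A flank from 750 bp gave a slope of -0.706 (exact permutation p = 0.0286), and omitted mice -0.890 to -0.553. Introns minus TSS gave 8.45 with a centre of 50 bp (exact permutation p = 0.0286) and 6.61 to 10.5 without 1 mouse, and the rest of gene bodies minus TSS 5.23 to 9.25. The shoulder gave 2.13 to 4.56, the central signal on the deposited scale 0.461 to 0.630, its window mean -0.0817 to 0.140, and the band from 500 to 750 bp -0.543 to 0.503. Against the other times, all peaks gave -0.0232 with a centre of 50 bp and -0.821 to 1.58 without 1 series. Without 1 series they gave -2.29 to 1.05 against ZT14 and -1.05 to 5.20 against ZT22. Decile 1 gave 6.12 with a centre of 250 bp (exact permutation p = 0.0286). Against ZT02 it gave -4.60 with a centre of 50 bp and -0.280 to 3.60 without 1 series. The top 200 intergenic peaks beyond 10 kb minus the rest gave -0.130 with a centre of 250 bp and -0.238 with a flank that began farther out. The cause of these changes was not tested. By limma, the 1870 bp became 0 bp on the deposited scale, 2360 bp with a flank from 750 bp and 2780 bp without a trend. The width was 2080 bp with the 8 libraries alone, and 0 to 2760 bp without the libraries of 1 replicate number. For all peaks the 10 bp became 0 bp on the deposited scale and with the 8 libraries alone. It became 70 bp with a flank from 750 bp, 170 bp without a trend, and 0 to 120 bp without 1 replicate number. A filter that removed the 25% of positions of lowest signal removed the whole centre, 8100 of the 20250 bp it removed, and left 0 calls.

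The replicate numbers differ between the genotypes, so mice of ZT10 cannot be paired. Over 39 pairs of same-numbered libraries of different times, deviations from the group means correlated at -0.0348 to 0.331 (median 0.139), 26 exceeded 0.1, and in 23 the own number was highest, a hint from the data and not from the design that same-numbered libraries go together. Since not every pair exceeded 0.1, the pairing was not taken as established, although the contrasts with other times grouped libraries by number. A random replicate block gave 2710 bp, and 130 bp for all peaks, and a fixed replicate block 0 bp for the contrast with other times. With no replicate block the all-peak contrast with the other times was 0.247, and that of decile 1 4.45 (limma, adjusted p = 0.963 each).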

Other observations

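The place of the minimum in decile 1 of the peak list, which enters no comparison above, was -95, -25, -5 and -15 bp from the window middle in wild-type mice at ZT10. It was 5, 15, 25 and 65 bp in Bmal1-/- mice. The groups did not overlap (difference 62.5 bp, SE 24.3, exact permutation p = 0.0286), but among 28 sets the adjusted p was 0.8, the lowest that 1 set alone at that p can have. Over all peaks the places were the same on average, at -17.5 bp in both genotypes.

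On the right shoulder of the top 400 introns, from 150 to 500 bp, wild-type mice had 94.4%, 92.6%, 94.9% and 92.5% of flank and Bmal1-/- mice 98.8%, 100.2%, 99.4% and 100.004%. The difference there was 6.01 points (SE 0.695, exact permutation p = 0.0286, adjusted p = 0.2). On the left shoulder the groups overlapped, with a difference of 2.91 points (SE 1.99, exact permutation p = 0.229, adjusted p = 0.4). The 2 shoulders were not tested against each other.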
